A study of Homo sapiens with 132 samples.

Results

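The 36 genes described here encode the machinery that takes up and breaks down glucose, the branch of that route known as the pentose phosphate pathway, and a pair of arrestin-like proteins, TXNIP and ARRDC4, that respond to glucose. They were chosen by name and matched to the Ensembl identifiers of the count tables, where all 36 were found among 65217 identifiers. By role they are the glucose transporters SLC2A1 and SLC2A3 with the hexokinases HK1 and HK2; the upper glycolytic enzymes GPI, PFKL, PFKM, PFKP, ALDOA, ALDOC and TPI1; the regulators of phosphofructokinase PFKFB2, PFKFB3 and PFKFB4; the lower glycolytic enzymes GAPDH, PGK1, PGAM1, ENO1, ENO2 and PKM; the lactate genes LDHA, LDHB, SLC16A1 and SLC16A3; the pyruvate dehydrogenase kinases PDK1, PDK2, PDK3 and PDK4; the pentose phosphate enzymes PGD, TKT and TALDO1; the arrestin-like genes TXNIP and ARRDC4; and HIF1A, BNIP3 and CA9, which belong to the response to low oxygen.

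Glycolysis converts glucose to pyruvate. Tumour cells commonly pass much of that pyruvate on to lactate, which lactate dehydrogenase makes and the monocarboxylate transporters export. The pyruvate dehydrogenase kinases switch off the enzyme complex that would otherwise feed pyruvate into mitochondria. TXNIP binds thioredoxin and promotes the removal of glucose transporters from the cell surface, and its transcription rises with sugar phosphates through the glucose-sensing factor MondoA.

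RNA was sequenced from Hs746T, MKN1, MKN7 and NCI-N87, 4 established lines of gastric cancer, in 132 libraries that make up 44 conditions with 3 biological replicates each. MKN1 and Hs746T were given EGF (5 ng/ml), the anti-EGFR antibody cetuximab (1 µg/ml) or both, and all 4 lines were given the anti-HER2 antibody trastuzumab (5 µg/ml), the irreversible EGFR and HER2 kinase inhibitor afatinib (0.5 µM) or both. Cells were collected after 4 h and 24 h, and untreated cells of the same line and time served as controls. The paper names DMSO as the solvent of afatinib, and no library of the series was given DMSO alone. Changes after afatinib against untreated cells therefore hold drug and solvent together. The paper did include DMSO as a control in its qPCR of selected genes. It also refers to minor DMSO effects in earlier western blots. All groups were kept in medium with serum, each line stands for 1 tumour, and p-values describe the spread between these libraries only.

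Library totals ran from 25832557 to 69434151 counts with a median of 50725775. The 9 MAPK target genes used as a check of drug activity, among them DUSP6, EGR1 and SPRY4, were all lower by more than 1 on the log2 scale after afatinib in MKN1 and NCI-N87 at both times and in MKN7 at 24 h, and 8 of the 9 were in MKN7 at 4 h. In Hs746T no gene at all passed the test described below after afatinib, EGF or cetuximab (0 of 186670 tests), so the check gave no called response in that line. The 5 epithelial markers, KRT8, KRT18, KRT19, CDH1 and EPCAM, summed to medians of 18422 CPM in MKN1, 17254 in NCI-N87, 5586 in MKN7 and 554 in Hs746T. CDH1 and EPCAM alone were low in MKN1 (untreated medians of 2.18 and 25.9 CPM), where the keratins made up nearly all of the sum, and in Hs746T (0.778 and 35.2 CPM). Summed leukocyte markers never exceeded 11.4 CPM. The fibroblast and mesenchymal markers summed to medians of 2338 CPM in Hs746T, 557 in MKN1, 24.98 in NCI-N87 and 21.7 in MKN7. In Hs746T their lowest sum, 1923 CPM, lay above the highest epithelial sum, 721 CPM. The endothelial markers summed to medians of 158 CPM in Hs746T, 12.5 in MKN1, 1.804 in NCI-N87 and 0.863 in MKN7. The source of these differences between lines was not tested. CPM is the usual depth-normalised read count, a gene's count relative to the total of its library after TMM scaling, which was computed within each line except where levels of different lines are set side by side. In bulk RNA, fewer cells of a type and less RNA per cell cannot be told apart.

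Of the 36 genes, ALDOC and PFKFB2 had 0 counts in all 132 libraries, where 3 counts would equal 0.0432 to 0.116 CPM. ALDOC overlaps AC005726.1 on the same strand (summed count 1378) and PFKFB2 overlaps YOD1 on the opposite strand (summed count 0). Whether their reads were lost in counting was not tested, so nothing is said of their expression. Of the remaining 34, 33 passed the filter on low counts in each line. CA9 was too low in MKN1, MKN7 and NCI-N87, and ARRDC4 was too low in Hs746T. Whether reads were counted by strand is not given, so PFKM, SLC16A3 and PDK2 may share reads with SENP1, CSNK1D and SAMD14 on the opposite strand. The summed counts of those were 45.2, 23.6 and 10.3% of theirs. PFKFB4 and ENO2 overlap UCN2 and LRRC23 on the same strand (27.7 and 15.1%), which counting by strand would not separate. CA9 overlaps ARHGEF39 on the opposite strand, whose summed counts were 1.09e+04% of its own. HIF1A overlaps HIF1A-AS1 and AL137129.1 (3.79 and 1.18%). How reads in overlaps were counted is not known, so the values of all these genes are uncertain. Genes are called regulated where edgeR's quasi-likelihood test gave a Benjamini-Hochberg adjusted p under 0.05 over all genes and the log2 fold change (log2FC) exceeded 1 in size. Genes past the adjusted p alone are said to have passed the test.

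Stretches upstream of TXNIP, ARRDC4, HK2 and LDHA are shown 5′ to 3′ in the direction of the gene, with 30 bases on either side of the motifs found. They come from the RefSeq promoter table (build GRCh38.p14, 250 bases before to 50 after each annotated start). These are not the genes that changed most. In NCI-N87 after 24 h of afatinib, PFKP and PDK4 changed more than LDHA, and ARRDC4 did not pass the test described above. Capitals mark the paired half-site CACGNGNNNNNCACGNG, the form of the carbohydrate response element, the E-box CACGTG that MYC, HIF and MondoA family factors can bind, and the forkhead motif TGTTTAC or its reverse complement. The TXNIP stretch is chr1:145996621-145996733 on the minus strand, ARRDC4 is chr15:97960463-97960528, HK2 chr2:74834946-74835056 and LDHA chr11:18394348-18394511, the last 3 on the plus strand.
TXNIP: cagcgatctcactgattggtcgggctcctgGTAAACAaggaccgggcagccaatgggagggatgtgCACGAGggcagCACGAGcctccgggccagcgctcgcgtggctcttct
ARRDC4: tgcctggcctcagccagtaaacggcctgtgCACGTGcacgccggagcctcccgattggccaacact
HK2: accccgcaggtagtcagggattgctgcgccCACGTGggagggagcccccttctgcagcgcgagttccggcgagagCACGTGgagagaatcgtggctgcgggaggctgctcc
LDHA: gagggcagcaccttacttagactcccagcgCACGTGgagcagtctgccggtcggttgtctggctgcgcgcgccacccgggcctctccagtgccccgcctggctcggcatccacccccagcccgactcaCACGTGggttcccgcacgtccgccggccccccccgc

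The paired half-site began 88 bases before the TXNIP start and was found in no other gene of the 33 with an entry; PFKFB2, SLC2A3 and SLC16A1 have none. Over all 35116 windows of the table, on both strands, 20 held it (0.057%). The forkhead motif, 124 bases before the TXNIP start, was likewise found in TXNIP alone among the 33, and in 1202 windows in all (3.42%). The E-box stood 210 bases before the start in ARRDC4, 194 and 149 in HK2, and 185 and 87 in LDHA. It was found in 9 of the 33 genes (ALDOA, ALDOC, ARRDC4, BNIP3, GAPDH, HK2, LDHA, PDK2 and PFKFB3) which is 9 of the 63 windows of these genes (14.3%), and in 2548 of all windows (7.26%). PFKP, PKM and PDK4, among the genes that changed most in NCI-N87 after 24 h of afatinib, held no match to any of these motifs. Each match describes letters in these windows and is not evidence of binding.

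In untreated cells the genes covered a wide range of levels, which differed between lines most for the hypoxia-linked genes and ARRDC4. Per kilobase of exon, GAPDH led in MKN1, NCI-N87 and Hs746T (medians over 6 untreated libraries of 621, 809 and 1003 CPM per kb), and ALDOA led in MKN7 (997 CPM per kb). BNIP3, a mitophagy gene induced by hypoxia, had medians of 229 CPM in MKN7 and 182 CPM in Hs746T but 2.02 CPM in MKN1 and 3.74 CPM in NCI-N87. Its ranges in the first pair of lines (115 to 255 and 147 to 204 CPM) did not overlap those in the other pair (1.33 to 2.23 and 2.69 to 4.51 CPM). HIF1A, the oxygen-regulated transcription factor subunit, was at 48.6 CPM in MKN7 and between 1.30 and 2.38 CPM in the other 3 lines. CA9, a carbonic anhydrase that HIF induces, was barely detected anywhere, with its highest median, 0.414 CPM, in Hs746T.

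ARRDC4 was at a median of 46.1 CPM in NCI-N87, 26.7 in MKN7 and 9.997 in MKN1, and at 0.0586 CPM in Hs746T, where its highest value in any of 42 libraries was 0.372 CPM. TXNIP followed with 119 CPM in NCI-N87, 141 in MKN7, 44.2 in MKN1 and 35.2 in Hs746T. MKN7 and NCI-N87 did not differ in TXNIP beyond their spread (log2FC 0.19, adjusted p = 0.328), whereas both exceeded MKN1. SLC2A1, the main glucose transporter of most proliferating cells, was highest in NCI-N87 (1739 CPM), then MKN7 (748), Hs746T (339) and MKN1 (257). SLC2A3, a transporter of higher affinity, had its top value in Hs746T (52.2 CPM) and its lowest in MKN1 (3.87 CPM). HK1 was at 800 CPM in Hs746T against 137 to 180 CPM in the other lines, and LDHA was at 718 CPM in NCI-N87 against 1981, 2392 and 4274 CPM in MKN1, Hs746T and MKN7.

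**Figure D1:**
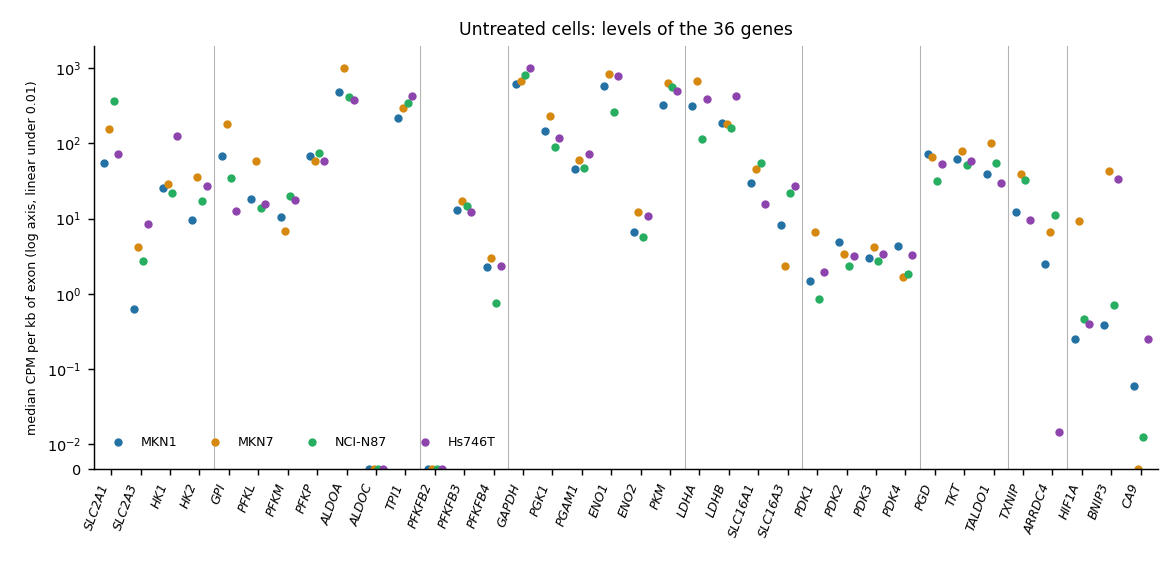
Median level of each of the 36 genes in untreated cells, in CPM per kb of exon on a log axis that is linear under 0.01, with 1 point per cell line over 6 untreated libraries (3 at 4 h and 3 at 24 h). BNIP3 and HIF1A stand apart in MKN7, BNIP3 also in Hs746T, and ARRDC4 is near 0 in Hs746T only; PFKFB2 and ALDOC lie at 0.

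Between untreated lines, 15 of the 34 genes in the fit over all libraries were regulated between MKN1 and MKN7, where 41.4% of all genes were. The counts were 11 between MKN1 and NCI-N87 (45.9% of all genes), 11 between MKN1 and Hs746T (47.8%), 16 between MKN7 and NCI-N87 (44.4%), 16 between MKN7 and Hs746T (45.9%) and 15 between NCI-N87 and Hs746T (49.1%). Those shares of members are near or below the shares of all genes. In MKN7, 13 genes were regulated upward and 3 downward relative to NCI-N87, among them GPI, the enzyme that converts glucose 6-phosphate to fructose 6-phosphate (log2FC 2.37, SE 0.07), LDHA (2.51, SE 0.08) and PDK1 (2.98, SE 0.17).

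Afatinib had its broadest effect on these genes in NCI-N87. After 24 h, 12 of the 33 genes tested were regulated downward, where 11.5% of all genes were, and 3 were regulated upward, where 18.1% of all genes were. At the adjusted p alone, 23 fell (31.0% of all genes) and 3 rose (31.5% of all genes). The median log2FC of the 33 was -0.75, and that of all genes 0.03. Scaling by library size alone in place of TMM moved all genes of this comparison up by 0.26 on the log2 scale, and with it 8 genes were regulated downward and 3 upward, and 21 fell and 7 rose at the adjusted p alone. In the same libraries 2 of the 5 epithelial markers were regulated downward and 2 of the 3 endothelial markers tested upward, the endothelial ones summing to at most 4.28 CPM in any library of the line, and their part in the result was not tested.

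HK2, the inducible hexokinase that traps glucose in the cell, fell most. Its level was 96.6, 108 and 113 CPM in untreated NCI-N87 cells and 13.4, 13 and 13.5 CPM after 24 h of afatinib (log2FC -3.0, SE 0.10, adjusted p = 2.71e-15). All treated libraries lay far below all untreated ones, and the drop could be seen at 4 h, when HK2 was at 106, 113 and 99.1 CPM without and 35.3, 41.6 and 34.5 CPM with the drug (log2FC -1.51, adjusted p = 6.81e-10). The other hexokinase, HK1, went from 155, 136 and 140 CPM to 82.6, 77.4 and 77.2 CPM at 24 h (log2FC -0.86), which passed the test below the fold limit. SLC2A1 stood at 1404, 1721 and 1740 CPM without and at 581, 842 and 948 CPM with afatinib (log2FC -1.04, SE 0.16). It fell to -0.91 without replicate 1 and to -0.78 with library size alone, still past the adjusted p. SLC2A3 was at 18.8, 11.2 and 15.8 against 8.81, 3.64 and 8.98 CPM (log2FC -1.09, adjusted p = 0.00825), and this call rested on all 3 replicates: leaving out replicate 1 or 3 gave adjusted p = 0.0734 and 0.0503, and leaving out replicate 2 gave a log2FC of -0.94.

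Of the 3 phosphofructokinase genes, whose products catalyse the committed step, PFKP fell from 330, 374 and 365 to 68.2, 65.7 and 70.1 CPM (log2FC -2.39, SE 0.09). PFKM and PFKL fell by 0.65 and 0.44 on the log2 scale and remained under the fold limit. TPI1, which interconverts the triose phosphates, was regulated downward (log2FC -1.27), as was GPI (-1.16, or -0.90 with library size alone), and the aldolase ALDOA fell less (-0.77). PFKFB3 and PFKFB4, whose products make the activator fructose 2,6-bisphosphate, were not called at 24 h (log2FC 0.17 and 0.30, adjusted p = 0.249 and 0.0985). PFKFB3 had fallen at 4 h, from 93.2, 93.5 and 94.8 to 59.6, 56.5 and 54.8 CPM (log2FC -0.72). Its level at 24 h therefore overlapped the controls after it had been clear of them at 4 h.

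The lower glycolytic enzymes all passed the test downward at 24 h. PKM, pyruvate kinase, dropped from 5549, 5096 and 5057 CPM to 1370, 1231 and 1319 CPM (log2FC -2.00, SE 0.14). ENO1, the main enolase, went from 1309, 1257 and 1514 to 362, 367 and 453 CPM (log2FC -1.79), and the mutase PGAM1 changed by -1.41. GAPDH, often used as a reference gene, fell by 0.78, PGK1 by 0.75 and ENO2 by 0.59. No member of this group passed the test at 4 h. LDHA, which reduces pyruvate to lactate, went from 710, 650 and 770 to 169, 160 and 192 CPM (log2FC -2.03, SE 0.12, adjusted p = 3.04e-12), while LDHB changed by -0.99. The lactate exporter SLC16A1 changed by -1.04 (-0.97 without replicate 1, -0.78 with library size alone) and SLC16A3 by -0.69. Summed over the 17 glycolytic enzymes from the hexokinases to lactate dehydrogenase, ALDOC included at 0, the level went from 14944 ± 761 to 5892 ± 649 CPM (SD, n = 3). With library size alone the sums were 14222 ± 501 and 6702 ± 429 CPM.

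The pyruvate dehydrogenase kinases moved in opposite directions in NCI-N87. PDK1, a HIF target, fell from 10.8, 12.8 and 16.2 to 3.65, 4.06 and 4.64 CPM (log2FC -1.69, SE 0.15) at 24 h. PDK4, known as the starvation-responsive isoform, rose from 9.82, 9.87 and 5.25 to 59.2, 49.3 and 32.6 CPM (log2FC 2.50, SE 0.27, adjusted p = 7.1e-08), and PDK2 from 15.8, 15.2 and 12.6 to 43.6, 41.6 and 48.3 CPM (log2FC 1.61, SE 0.15). PDK4 was already clear of its controls at 4 h, with 8.26, 8.79 and 7.51 CPM without and 45.1, 39.1 and 38.8 CPM with afatinib (log2FC 2.32, adjusted p = 2.43e-06). PDK3 fell by 0.40 in overlapping groups, a call lost without replicate 2 or 3 (adjusted p = 0.0528 and 0.0572). In the pentose phosphate pathway, which supplies NADPH and ribose, PGD, the second oxidative enzyme, fell by 0.46. TKT and TALDO1, the enzymes of the non-oxidative branch, were at log2FC 0.09 and -0.12 (adjusted p = 0.525 and 0.264), and the value for TALDO1 became 0.13 with library size alone.

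TXNIP was at 84.4, 123 and 94.3 CPM in untreated NCI-N87 cells at 24 h and at 254, 384 and 282 CPM after afatinib (log2FC 1.61, SE 0.24, adjusted p = 4.57e-06). At 4 h it was at 123, 232 and 176 CPM against 231, 297 and 303 CPM, groups that overlapped narrowly, with a log2FC of 0.64 and an adjusted p of 0.0588, or 4.3e-06 with the replicate number as a block. ARRDC4, the nearest relative of TXNIP among the genes studied, did not rise with it: 30.5, 41.6 and 44.2 CPM in untreated cells overlapped 26.9, 38.8 and 31.6 CPM in treated ones (log2FC -0.26, adjusted p = 0.37). With the block its adjusted p was 0.0123 at the same log2FC, and with library size alone the log2FC was 0.01. HIF1A and BNIP3 stayed at log2FC 0.32 and -0.04, neither past the test (adjusted p = 0.223 and 0.88).

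At 4 h in NCI-N87, 2 of the 33 genes were regulated, HK2 and PDK4, where 3.24% of all genes were, and 7 passed the test (18.2% of all genes). The other 5 were PFKFB3, PFKP (log2FC -0.54), SLC2A1 (-0.62), SLC16A3 (-0.39) and PDK2 (0.82). The call for SLC2A1 was lost without replicate 2 (adjusted p = 0.159) or replicate 3 (0.0584), and so was that for SLC16A3 (0.0792 and 0.111). With the replicate number as a block, 16 passed.

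**Figure D2:**
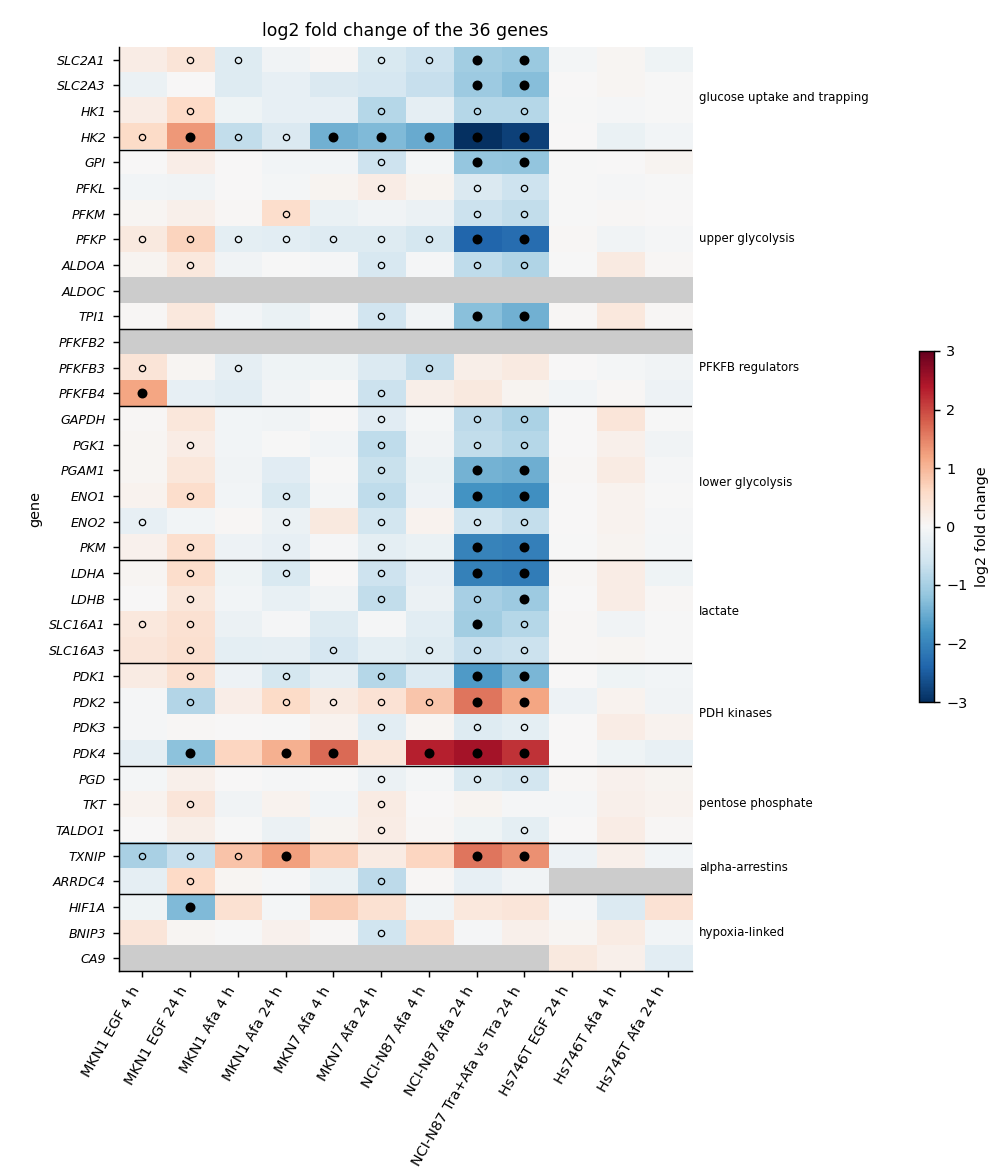
Log2 fold change of the 36 genes, grouped by role, in 12 comparisons of treated with control libraries on a colour scale from -3 to 3; filled dots mark regulated genes, open dots genes past the adjusted p alone, and grey cells genes not tested. The broadest block of falling genes is NCI-N87 after 24 h of afatinib, with 12 regulated downward, and the Hs746T columns hold no dot.

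The libraries given trastuzumab alone or with afatinib repeated the afatinib comparison in other libraries. In NCI-N87 at 24 h, the combination against trastuzumab gave 12 genes regulated downward (10.8% of all genes) and 3 upward (17.4% of all genes), with a median log2FC of -0.85. HK2 was at 84.4, 97.7 and 85.3 CPM with trastuzumab and 13, 12.3 and 13.2 CPM with both (log2FC -2.80). The log2FC of PFKP was -2.30, of LDHA -2.09, of PKM -2.05, of PDK4 2.16 and of TXNIP 1.38. At 4 h the combination also regulated HK2 (log2FC -1.60) and PDK4 (2.23), and TXNIP passed the test (0.76, adjusted p = 0.0236, or 0.253 without replicate 3).

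In MKN7, afatinib lowered most of the glycolytic enzymes at 24 h, HK2 alone past the fold limit. HK2 was the only gene of the 33 regulated (13.5% of all genes were), 21 fell at the adjusted p alone (25% of all genes) and 4 rose (26.6% of all genes). The median log2FC was -0.45 against 0.04 for all genes. HK2 was at 202, 238 and 221 CPM in untreated cells and 88.7, 98 and 76.2 CPM with afatinib (log2FC -1.33, SE 0.24, adjusted p = 0.000116). ENO1 fell from 4281, 3986 and 4303 to 2504, 2501 and 2355 CPM (log2FC -0.77), and LDHA from 4238, 4282 and 4150 to 2870, 2924 and 2467 CPM (-0.62). HK1 (-0.85), PDK1 (-0.86), PGK1 (-0.75), LDHB (-0.73), PFKFB4 (-0.64) and BNIP3 (-0.61) passed the test as well, PDK1 not without replicate 1 (adjusted p = 0.083) and BNIP3 not without replicate 1 or 2 (0.137 and 0.0645). PFKP and PKM, which fell far in NCI-N87, changed by -0.39 and -0.29 here, and PKM lost its call when any replicate was left out. The 4 genes that rose were PDK2 (0.43), TKT (0.25), PFKL (0.21) and TALDO1 (0.21), of which only PDK2 kept its call without each replicate in turn. Of all 25 calls, 17 held in every such fit. The summed level of the 17 enzymes was 25838 ± 1085 CPM without and 18166 ± 1263 CPM with afatinib (SD, n = 3). With library size alone all genes of this comparison moved up by 0.11.

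ARRDC4 fell in MKN7 at 24 h, from 16.6, 18.6 and 17.9 to 10.5, 10.9 and 9.38 CPM (log2FC -0.79, SE 0.12, adjusted p = 1.12e-05), whereas TXNIP, at 106, 145 and 91.8 against 150, 170 and 88.7 CPM, did not pass (log2FC 0.25, adjusted p = 0.465, or 0.021 with the block). At 4 h TXNIP was higher in every treated library than in every untreated one, with 194, 214 and 128 against 294, 351 and 234 CPM, but its spread gave an adjusted p of 0.0722 (log2FC 0.71; 3.8e-07 with the block, and 0.0217 without replicate 3). At 4 h, 2 genes were regulated (3.40% of all genes), HK2 downward (180, 264 and 184 against 74.8, 106 and 48.9 CPM; log2FC -1.45) and PDK4 upward (7.62, 5.31 and 4.61 against 19.6, 15.8 and 21.1 CPM; log2FC 1.69). In all 5 passed the test (22.2% of all genes), or 10 with the block. By 24 h PDK4 was at log2FC 0.34 (adjusted p = 0.0744, or 0.0081 with the block). In the trastuzumab background, 1 gene, HK2, was regulated at 24 h (log2FC -1.21; 9.70% of all genes), and HK2 and PDK4 at 4 h (-1.20 and 1.61). The HK2 call at 4 h was lost without replicate 1 (log2FC -1.22, adjusted p = 0.0727).

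**Figure D3:**
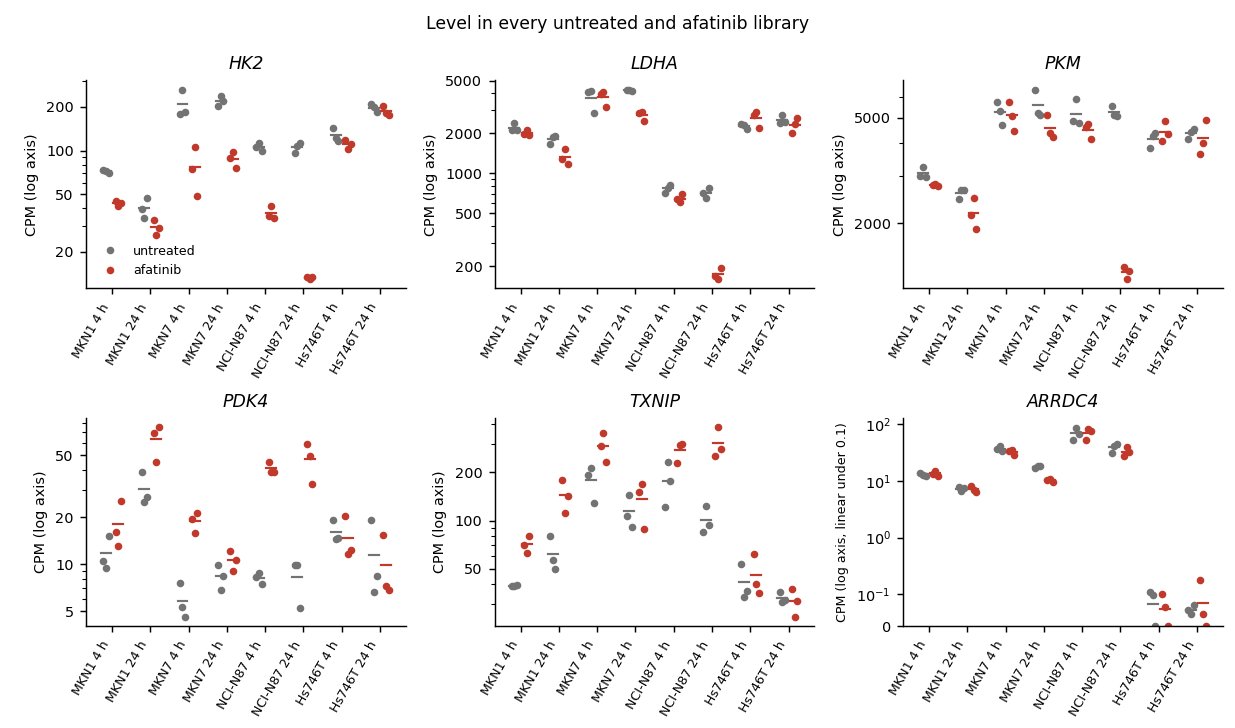
Level in CPM (log axis; for ARRDC4 linear under 0.1) of HK2, LDHA, PKM, PDK4, TXNIP and ARRDC4 in every untreated (grey) and afatinib (red) library of the 4 cell lines at 4 h and 24 h; each point is 1 library and each bar the mean of 3. HK2 in treated NCI-N87 cells at 24 h lies at 13 to 13.5 CPM under controls at 96.6 to 113 CPM, while in Hs746T the grey and red points lie together.

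In MKN1 afatinib raised TXNIP and PDK4 and changed the glycolytic enzymes little. TXNIP was at 38.9, 39.2 and 39.5 CPM in untreated cells at 4 h and at 70.9, 63.0 and 80.5 CPM with afatinib (log2FC 0.87, SE 0.20, adjusted p = 0.00771, or 0.243 without replicate 3). At 24 h it went from 79.8, 56.7 and 49.6 to 181, 112 and 142 CPM (log2FC 1.22, SE 0.20, adjusted p = 2.58e-05), and every treated library lay above every untreated one. PDK4 rose at 24 h from 39.0, 25 and 26.8 to 69.0, 45.0 and 75.4 CPM (log2FC 1.06, SE 0.27, adjusted p = 0.00331). Without replicate 3 that call was lost (log2FC 0.84, adjusted p = 0.0777). These were the 2 regulated genes of the 33 at 24 h, where 4.19% of all genes were regulated.

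At the adjusted p alone, 7 genes fell in MKN1 at 24 h (13.3% of all genes) and 4 rose (12.2% of all genes). HK2 was at 39.6, 34.3 and 46.8 against 33.0, 26.4 and 29.3 CPM (log2FC -0.44) and LDHA at 1677, 1877 and 1901 against 1283, 1526 and 1173 CPM (log2FC -0.45). Both lost the call without replicate 3 (adjusted p = 0.211 and 0.148). The other 5 that fell were PDK1 (-0.53), ENO1 (-0.47), PFKP (-0.32), PKM (-0.25) and ENO2 (-0.19), and each of these calls was lost without replicate 3 (adjusted p = 0.0598 to 0.584). PDK2 (0.57) and PFKM (0.53) rose beside TXNIP and PDK4. PFKM was at 96.2, 90.4 and 83.8 CPM without and 130, 128 and 132 CPM with afatinib. ARRDC4 was level with its controls at both times (log2FC 0.05 and -0.04).

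At 4 h in MKN1, edgeR called 0 of the 33 regulated (0.681% of all genes), as did DESeq2 and the fit with the block. There were 9 genes with an unadjusted p under 0.05, and 5 passed the adjusted p (3.68% of all genes), or 10 with the block. HK2 fell from 73.2, 72.1 and 70.3 to 44.9, 41.3 and 43.6 CPM (log2FC -0.73), in groups that did not overlap. SLC2A1 (-0.38), PFKP (-0.29) and PFKFB3 (-0.27) also fell, SLC2A1 with an adjusted p of 0.0677 without replicate 1 PFKP with 0.239 and 0.328 without replicate 1 or 3, and PFKFB3 with 0.0649 to 0.382 when any replicate was left out. In the trastuzumab background PDK4 and TXNIP were again the 2 regulated genes at 24 h (log2FC 1.09 and 1.06; 4.22% of all genes). Without replicate 3 they stood at 0.97 and 0.87.

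The effect of afatinib at 24 h was then compared between lines by interaction terms in a fit over all libraries. Against MKN7, the effect in NCI-N87 differed by more than 1 on the log2 scale for 7 of 34 genes (9.64% of all genes). HK2 (-1.64), PFKP (-1.97), PKM (-1.69) and LDHA (-1.39) fell further in NCI-N87, and PDK2 (1.21), PDK4 (2.18) and TXNIP (1.38, SE 0.35, adjusted p = 0.00165) rose further. Against MKN1, 12 genes differed (13.4% of all genes), 10 of them toward lower values in NCI-N87, led by HK2 (-2.54), PFKP (-2.05) and PKM (-1.73). Over the same contrast TXNIP did not differ detectably (0.40, adjusted p = 0.442). Against Hs746T, 14 differed (19.4% of all genes), with HK2 at -2.89, PFKP at -2.32, PDK4 at 2.76 and TXNIP at 1.71.

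Between MKN7 and MKN1, edgeR found 0 of the 34 regulated (3.6% of all genes), DESeq2 0, and the fit with the block 1. At an unadjusted p under 0.05 there were 13. At the adjusted p alone, 5 differed (7.61% of all genes), or 15 with the block, and all 5 were lower in MKN7: HK2 (-0.90), PGK1 (-0.75), PFKM (-0.63), HK1 (-0.62) and GPI (-0.54). None of the 5 held in every fit with a replicate left out: HK2 was lost without replicate 1 (adjusted p = 0.0816), PFKM without replicate 3 (0.226), and the others without replicate 2 or 3. The difference for TXNIP was -0.98 (adjusted p = 0.07, or 3.0e-06 with the block).

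Within enzyme families, afatinib shifted the balance of isozymes in NCI-N87. Shares were taken per kilobase of exon in each library and are given as descriptions. HK2 made up 39.4, 45.2 and 45.7% of HK1 and HK2 together in untreated NCI-N87 cells at 24 h, and 14.4, 14.9 and 15.3% with afatinib. PFKP went from 65.8, 67.7 and 68.2% to 38.1, 36 and 35.9% of the 3 phosphofructokinase genes, and LDHA from 41.4, 41.2 and 41.6% to 28, 25.3 and 24.0% of LDHA and LDHB. In each of these families the treated libraries lay outside the range of the untreated ones. PDK4 rose from 25.8, 25 and 13.6% to 55.9, 51.3 and 38.0% of the 4 kinases, while PDK1 went from 8.66, 9.86 and 12.8% to 1.05, 1.28 and 1.64%.

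Other lines kept other balances. In MKN7 LDHA stayed near its share, with 79.5, 81.2 and 75.3% in untreated and 81.4, 81.5 and 76.7% in treated libraries at 24 h. HK2 in MKN7 had its larger shift at 4 h, from 50.3, 60.7 and 57.6% to 33.5, 41.5 and 30.4%. In MKN1 PFKP went from 59.8, 60.1 and 63.8% to 52.8, 52.3 and 52.1% at 24 h. In Hs746T HK2 accounted for 20.4, 19.9 and 19.9% without and 20.4, 19.6 and 17.9% with afatinib. With the longest transcript as the length, the mean HK2 share in NCI-N87 went from 33.9% to 10.4%, so the level of a share depends on the length used, and it was lower with afatinib by either length.

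**Figure D4:**
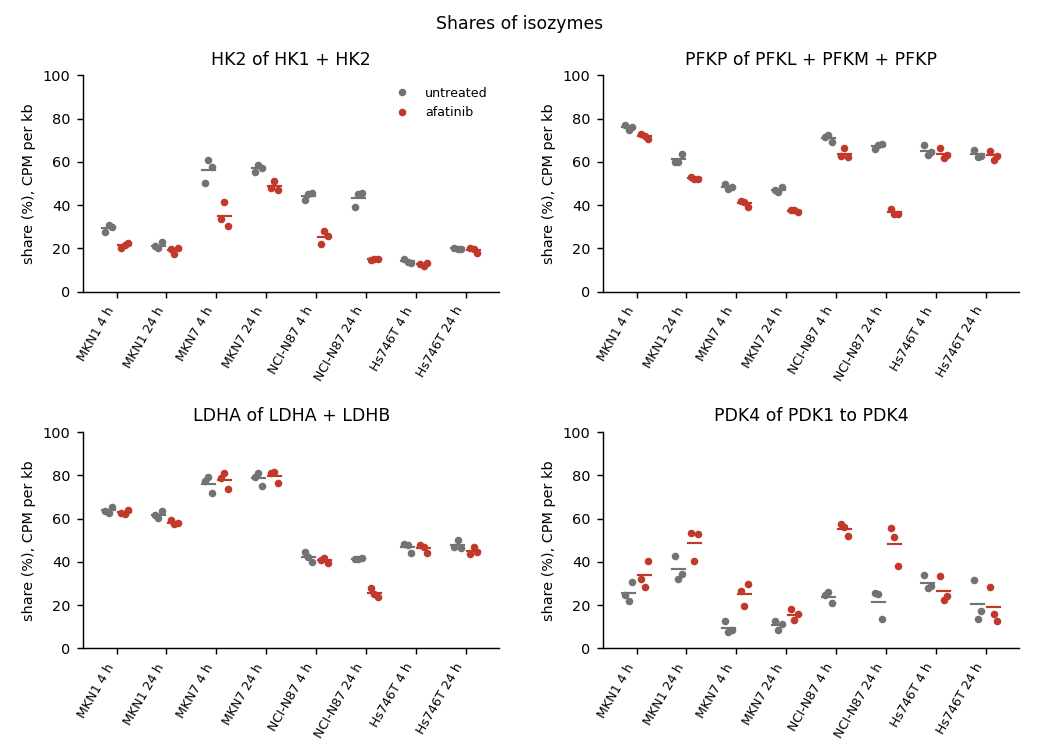
Share in percent, per kb of exon, of HK2 among HK1 and HK2, of PFKP among the phosphofructokinase genes, of LDHA among LDHA and LDHB and of PDK4 among the 4 kinases, in each untreated (grey) and afatinib (red) library by line and time; bars are means of 3. In NCI-N87 at 24 h the PFKP share lies at 35.9 to 38.1% in treated against 65.8 to 68.2% in untreated libraries.

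EGF was compared with the same untreated MKN1 libraries that served as controls for afatinib and cetuximab. At 4 h the 1 regulated gene (1.48% of all genes) was PFKFB4, which rose from 16.3, 19.0 and 17.1 to 40.4, 38.2 and 39.8 CPM (log2FC 1.17, SE 0.11, adjusted p = 1.53e-09). PFKFB4 overlaps UCN2 on the same strand, as given above, and the part of UCN2 reads in this rise was not tested. In all 7 genes passed the test (6.82% of all genes), or 11 with the block. HK2 rose to 105, 106 and 111 CPM (log2FC 0.58), and PFKFB3 (0.39), SLC16A1 (0.32) and PFKP (0.30) also rose. TXNIP fell from 38.9, 39.2 and 39.5 to 20.7, 20.5 and 18.6 CPM (log2FC -0.98, SE 0.20, adjusted p = 0.00137). Its value was -1.01 without replicate 1 and -1.08 with library size alone, both past the fold limit, and the adjusted p was 0.0733 without replicate 3. ENO2 fell by 0.26. The calls of PFKP, SLC16A1 and ENO2 were lost without replicate 1 or 3 (adjusted p = 0.0886 to 0.346). With library size alone all genes moved down by 0.11 in this comparison.

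At 24 h of EGF, 1 gene was regulated upward and 2 downward (8.36% of all genes were regulated), and at the adjusted p alone 15 rose (17.3% of all genes) and 4 fell (18.5% of all genes). The median log2FC was 0.32, that of all genes -0.05. HK2 was at 39.6, 34.3 and 46.8 CPM in untreated cells and 110, 83.0 and 104 CPM with EGF (log2FC 1.30, SE 0.10, adjusted p = 4.02e-11). Smaller rises were seen for PFKP (0.67), HK1 (0.61), LDHA (0.53), ENO1 (0.52), PKM (0.49), PDK1 (0.49), SLC16A3 (0.48), SLC16A1 (0.46), SLC2A1 (0.39), TKT (0.36), LDHB (0.35), ALDOA (0.32) and PGK1 (0.23). With library size alone, which moved all genes of this comparison down by 0.20, 9 rose and 7 fell, so the smaller rises depend on the scaling. Without replicate 1 the calls of SLC16A3, PDK1, TKT, LDHB, ALDOA and PGK1 were lost (adjusted p = 0.0595 to 0.206), and all but that of PGK1 were also lost without replicate 2 or 3. EGF replicate 2 had the top value of LDHA (3152 CPM against 2394 and 2340), of PKM and of ENO1.

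The falling genes at 24 h were PDK4, at 12.8, 10.3 and 15.3 CPM with EGF against 39.0, 25 and 26.8 CPM without (log2FC -1.24, adjusted p = 0.000599), PDK2 (-0.87), TXNIP (44.2, 33.7 and 37.2 CPM; log2FC -0.69, adjusted p = 0.00637) and HIF1A. HIF1A was low, at 2.49, 2.94 and 1.05 against 0.975, 0.889 and 0.734 CPM (log2FC -1.33, adjusted p = 0.0149), and its call was lost without replicate 1 (0.205) or 2 (0.0842). That of PDK4 was lost without replicate 1 (log2FC -1.01, adjusted p = 0.0949). ARRDC4 and TXNIP went in opposite directions: ARRDC4 rose from 7.90, 6.52 and 7.39 to 12.3, 9.92 and 10.6 CPM (log2FC 0.59, SE 0.12, adjusted p = 0.000224). PFKFB4, the gene that responded most at 4 h, was at 9.29, 8.0 and 9.60 CPM with and 10.8, 11.7 and 9.64 CPM without EGF (log2FC -0.25, adjusted p = 0.069).

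**Figure D5:**
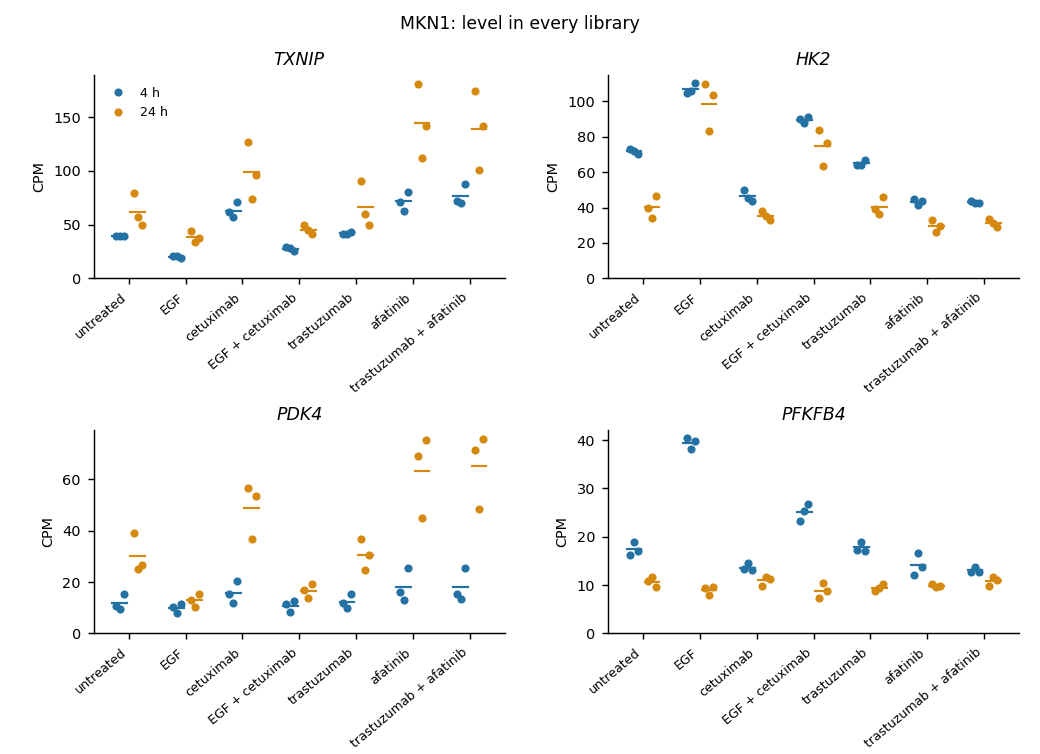
Level in CPM of TXNIP, HK2, PDK4 and PFKFB4 in the 7 conditions of MKN1 at 4 h (blue) and 24 h (orange), 1 point per library and bars for means of 3. TXNIP is lowest with EGF (18.6 to 20.7 CPM at 4 h) and highest with afatinib at 24 h (112 to 181 CPM), HK2 is at 83.0 to 110 CPM with EGF and 26.4 to 33.0 CPM with afatinib at 24 h, and PFKFB4 stands out with EGF at 4 h only.

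Cetuximab alone, set against the same untreated libraries of MKN1, regulated none of the 33 genes at either time by edgeR, DESeq2 or the fit with the block, with 8 at an unadjusted p under 0.05 at 4 h and 12 at 24 h. At 4 h 3 genes passed the test (1.43% of all genes), or 8 with the block and 6 by DESeq2: HK2 (49.7, 45.6 and 44.0 CPM; log2FC -0.63, adjusted p = 0.000301), SLC2A1 (-0.32) and PFKFB3 (-0.25), of which HK2 alone held when any replicate was left out. TXNIP was at 61.7, 56.6 and 70.8 CPM, above each of its controls, at an adjusted p of 0.0806 (log2FC 0.68; 0.0044 with the block). At 24 h 4 passed (10.8% of all genes), or 14 with the block and 6 by DESeq2. TXNIP was at 127, 74.0 and 96.1 CPM (log2FC 0.67, adjusted p = 0.024), and ENO1 (-0.39), LDHA (-0.31) and PFKP (-0.25) fell. All 4 calls were lost without replicate 3 (adjusted p = 0.136 to 0.494), and those of ENO1, LDHA and PFKP also without replicate 1. PDK4 was at log2FC 0.69 (adjusted p = 0.0891, or 0.00018 with the block).

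With EGF present, cetuximab brought PFKFB4 down at 4 h from 40.4, 38.2 and 39.8 to 23.3, 25.3 and 26.8 CPM (log2FC -0.65, adjusted p = 0.000459, or 0.11 without replicate 1), still above the 16.3 to 19.0 CPM of untreated cells. No other gene passed there, or 1 more with the block. The part of UCN2 reads in the fall of PFKFB4 was likewise not tested. At 24 h edgeR called 0 genes against EGF alone and DESeq2 1. There were 6 at an unadjusted p under 0.05, and the block called 5, among them HK2 (log2FC -0.40, adjusted p = 0.0545, or 0.0017 with the block).

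Trastuzumab alone changed none of these genes detectably. Over the 8 comparisons with untreated cells, in 4 lines at 2 times, edgeR called 0 of 264 tests of members (0% of tests of all genes), as did DESeq2 and the fit with the block. At an unadjusted p under 0.05 there were 5, or 18 with the block. Log2FC ran from -0.30 to 0.35, and the lowest adjusted p was 0.987.

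In Hs746T no comparison of afatinib, EGF or cetuximab changed any member detectably. Over 10 comparisons and 330 tests edgeR called 0 (0% of tests of all genes), DESeq2 0 and the block 0. At an unadjusted p under 0.05 there were 3, or 16 with the block. Log2FC ran from -0.41 to 0.44. HK2 was at 211, 198 and 185 CPM without and 203, 182 and 177 CPM with afatinib at 24 h (log2FC -0.08, SE 0.10), and TXNIP at 35.8, 31.2 and 32.0 against 37.6, 25.1 and 31.4 CPM (log2FC -0.07, SE 0.22). The summed level of the 17 enzymes was 21041 ± 604 and 20685 ± 2682 CPM (SD, n = 3).

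Some of the same genes also differed between untreated cells at 4 h and 24 h, so treated libraries were set only against libraries of the same time. Per the paper the medium was changed shortly before treatment, so time in culture and age of the medium cannot be told apart. In MKN1 2 genes were regulated between 4 h and 24 h (8.06% of all genes) and 16 passed the test (34.1% of all genes). PDK4 rose from 10.5, 9.47 and 15.2 to 39.0, 25 and 26.8 CPM (log2FC 1.37; 1.07 with adjusted p = 0.0808 without replicate 1) and PDK2 by 1.18. HK2 (-0.84), ARRDC4 (-0.83) and PFKP (-0.80) fell and TXNIP rose (0.66, adjusted p = 0.106 without replicate 1). Of the 16 calls, 8 were lost without replicate 1. With library size alone all genes of this comparison moved up by 0.17. In MKN7 1 gene was regulated (1.76% of all genes), or 2 with the block, and 6 passed the test (16.4% of all genes), or 15 with the block. It was ARRDC4, from 35.7, 40.3 and 33.4 to 16.6, 18.6 and 17.9 CPM (log2FC -1.05; -0.99 without replicate 1, -0.98 with library size alone). TXNIP in MKN7 was at 194, 214 and 128 CPM at 4 h and 106, 145 and 91.8 CPM at 24 h. It did not pass the test. In NCI-N87 edgeR called 0, DESeq2 3 and the block 4, with 4 at an unadjusted p under 0.05. TXNIP there was at 123, 232 and 176 CPM at 4 h and 84.4, 123 and 94.3 CPM at 24 h (log2FC -0.81, edgeR adjusted p = 0.16, or 2.8e-05 with the block). ARRDC4 was lower as well (log2FC -0.81, edgeR adjusted p = 0.193, or 1.1e-05 with the block). In Hs746T HK2 alone rose (log2FC 0.64; adjusted p = 0.159 and 0.123 without replicate 2 or 3), and 7 passed with the block.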

How the data were processed

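Libraries were made from purified mRNA, and per the labels' processing notes reads were trimmed with Trim Galore and aligned with STAR to hg38. The deposited files hold whole-number counts per Ensembl gene for each library, which the authors did not normalise. The counting program and the annotation are not given in the sources used here. Identifiers were matched to symbols through GENCODE 29, and 37 mitochondrial identifiers had 0 counts in every library. No values of samples outside the series were present.

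The counts were analysed with edgeR 4.0.16 in R 4.3.3: TMM scaling, filterByExpr with a minimum count of 10 and total of 15, and the quasi-likelihood test with Benjamini-Hochberg adjustment over all genes. The libraries of a line were fitted together. Interactions and comparisons between untreated lines (4 h and 24 h averaged) came from a single fit over all 132 libraries. Genes were called regulated at an adjusted p under 0.05 and an absolute log2 fold change above 1. Alternatives were DESeq2 1.42.0, library size alone, other filters, the compared groups only, the replicate number as a block and each replicate left out in turn. Over all libraries the block fit reused the dispersion trend of the fit without it. Levels between genes were compared per kilobase of the union of exons. A level of 3 counts was taken as the lower limit of detection, which covers counting error only. Library totals ranged from 25832557 to 69434151 counts (median 50725775).

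Replicate numbers paired the samples in 39 of 40 comparisons within lines, where samples of the same number deviated together with correlations over 0.1 for every number (lowest value over all comparisons -0.00996, median 0.3485, highest 0.739). The exception was MKN1 with trastuzumab and afatinib against trastuzumab at 24 h. The main calls in the text come from the fit without replicate numbers, which does not use this pairing. A gene not called there may therefore be called with the block, as given beside several results. The labels number the libraries in 2 series, of 65 and 67, that follow the replicate numbers within each line, except that Hs746T replicate 2 holds both. Its 4 h libraries are in the first series and its 24 h libraries in the second.

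On simulated counts for the NCI-N87 comparison of afatinib at 24 h (19078 genes), the test called 76% of genes changed by a log2 fold change of 1.5, 20% of those changed by 0.5, and 5 unchanged genes. Only 200 genes were changed in the simulation. In the data 31.0% of all genes fell and 31.5% rose at the adjusted p, so these rates need not hold there.

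Genes named in the text are the regulated members, at most 10 by size of change, and in the main comparisons also TXNIP, ARRDC4, HK2, SLC2A1, SLC2A3, PFKFB3, LDHA and PDK4. Other members past the adjusted p are given after their values were seen. Genes of other lists were to be named only if regulated, above a mean log2 CPM of 1 and changed the same way in every replicate, at most 5. The 36 members and all lists were chosen with earlier results of these data known. Python 3.11.15 with pandas 2.3.3 and matplotlib 3.10.9 served for tables and figures.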

Additional observations from a re-analysis of the deposited data

Results flagged for a closer look

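The effect of afatinib at 24 h differed between lines by the interaction test. Between NCI-N87 and MKN7 the log2 difference was -1.64 for HK2, -1.97 for PFKP, -1.69 for PKM, -1.39 for LDHA, 1.21 for PDK2, 2.18 for PDK4 and 1.38 for TXNIP. Between NCI-N87 and MKN1, 12 of 34 members differed past the fold limit (13.4% of all genes), and between NCI-N87 and Hs746T 14 did (19.4% of all genes). Between MKN7 and MKN1, 5 members differed at the adjusted p alone (7.61% of all genes).

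In MKN1 given EGF, ARRDC4 was lower than in untreated cells in each same-numbered pair at 4 h (log2FC -0.28, edgeR adjusted p = 0.19; adjusted p = 0.0429 with the replicate block and 0.0316 with library size alone) and higher in each pair at 24 h (log2FC 0.59, edgeR adjusted p = 0.000224). The difference between the times was not tested.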

How the results depend on the processing

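Counts of regulated members were recomputed for 50 comparisons under each alternative, and no count or named value that passed the test changed direction. With DESeq2, with the compared groups alone and with at least 10 counts in every library, all 50 counts held to within 1.5 times. With library size alone MKN1 with EGF at 4 h gave 2 in place of 1 and MKN7 over time 0 in place of 1. Without a filter MKN7 over time gave 2. The replicate block gave 2 for MKN7 over time and 1 in place of 0 for MKN7 minus MKN1. It lost none of the 107 named log2 fold changes and brought 13 past the threshold. The cause was not tested.

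Leaving out each replicate in turn gave 1 to 2 regulated members for MKN1 with EGF at 4 h, 1 to 3 at 24 h, 1 to 2 for MKN1 with afatinib at 24 h and 0 to 2 for its counterpart in the trastuzumab background. It gave 1 to 3 for MKN1 over time, 1 to 2 for MKN7 with trastuzumab and afatinib at 4 h and 0 to 1 for MKN7 over time.

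With 3 libraries a group, small changes can go undetected. How often they did in these data is not given by the simulation, which changed far fewer genes. The counts give RNA levels only and no enzyme amount or flux. ALDOC and PFKFB2 were at 0 counts in every library, as were the mitochondrial identifiers, so nothing is said of their expression.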

Other observations

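Genes of neighbouring pathways that were not members gave mixed counts in NCI-N87 after 24 h of afatinib, where 18.1% of all genes were regulated upward and 11.5% downward, 31.5% rose and 31.0% fell at the adjusted p alone, and the median log2FC of all genes was 0.03. The lists are short, and none was tested against those shares. Of 15 other glycolysis and gluconeogenesis genes tested, 4 were regulated upward and 2 downward (median log2FC -0.41). Of 11 other sugar transporters, 5 were regulated upward and 1 downward (median 0.53). Of 7 other genes of the pentose phosphate pathway and ribose use, 1 was regulated upward and 2 downward (median -0.66).

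Of 19 other genes of the hypoxia-inducible factors and their targets, 1 was regulated upward and 4 downward (median log2FC -0.35). Among 10 genes of the pyruvate dehydrogenase complex and mitochondrial pyruvate, 6 fell at the adjusted p, 1 of them past the fold limit (median -0.47). Among 6 other alpha-arrestins and glucose-sensing factors, 2 rose and 2 fell at the adjusted p, so that edgeR called 0 regulated with 5 at an unadjusted p under 0.05 (median log2FC 0.26).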
